A study of Homo sapiens with 22 samples.

Results

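The genes described here are 35 human genes of DNA damage repair and checkpoint control, out of 36859 genes in the deposited expression table. They were chosen by name, with earlier results of these data known. They were grouped by role into the Fanconi anaemia pathway (4 genes), strand exchange in homologous recombination (10), resection of broken ends and DNA helicases (6), damage kinases and checkpoint (5), end joining (5), end protection together with PARP1 (3) and mismatch repair (2). Their mRNA was measured by RNA-seq in RPTEC, human renal proximal tubule epithelial cells immortalized with hTERT, in 22 libraries that form 11 groups of 2. Grown in 2% serum were WT cells, the SETD2 knockout clones KO1 and KO2, cells labelled KO2 rescue, and WT cells given TGF-β (10 ng/ml, 72 h). In 10% serum there were the lines Rescue1 and Rescue2, in which FLAG-tagged SETD2 had been returned to knockout cells, and WT cells carrying eGFP, OCT2, PRRX1 or SOX2. Each knockout is 1 single-cell CRISPR clone cut in exon 3 of SETD2, each rescue line grew from a single colony under blasticidin, and the eGFP, OCT2, PRRX1 and SOX2 cells are puromycin-selected bulk lines, all made by lentiviral transduction. Serum therefore differs between Rescue and KO and between WT eGFP and WT, and its part in those comparisons cannot be told apart from that of the transgene. Nothing in the labels says that the 2 libraries of a group came from separate cultures, so the p-values measure the spread between these libraries only.

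A cell repairs a DNA double-strand break along competing routes. End joining seals the ends directly with the Ku proteins, the kinase DNA-PKcs and a dedicated ligase, and is protected by 53BP1. Homologous recombination first trims the ends with the MRE11 complex, CtIP and EXO1 and then copies an intact sister chromatid with the help of BRCA1, BRCA2, PALB2, RAD51C, RAD51D, XRCC2 and XRCC3, so it works in S and G2 phase, when many of its genes are also most transcribed. The Fanconi pathway unhooks crosslinks between the strands, ATM and ATR signal the damage through CHEK2 and CHEK1, and the mismatch repair proteins correct copying errors. SETD2 writes the histone mark H3K36me3 over transcribed genes, which is known as a landing site for factors of recombination and mismatch repair, and the gene is a recurrent target of mutation in kidney cancer.

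Levels are given as normalized counts, which are the reads of a gene after the authors' correction for library size and are comparable between libraries for 1 gene but not between genes. Library totals ran from 11674491 to 16758645 normalized counts, corresponding to about 7700000 to 18500000 reads. They differ between groups, and making the totals equal instead would shift every log2 change by -0.41 in KO1, -0.23 in KO2, -0.24 with TGF-β and 0.4 in Rescue against KO. SETD2 itself was at 1852 and 2061 in WT, 1046 and 1130.0 in KO1, 1049.8 and 1052 in KO2, 10240 and 10369 in Rescue1 and 10445 and 9764 in Rescue2. The libraries labelled KO2 rescue, at 834 and 819.6, did not exceed KO2, so their SETD2 mRNA goes against the label. Of 18 renal epithelial markers 13 had a median of at least 10 normalized counts, while HNF4A was at 0 in every library and LRP2 nowhere exceeded 2.29. No endothelial or podocyte marker reached that median, and of 3 leukocyte markers CD68 did while PTPRC and CD3E had a median of 0. The 2 WT libraries stand apart from each other, with summed fibroblast markers of 828.3 and 12414.3 normalized counts and proliferation markers averaging 7.68 and 8.35 on the log2 scale. Some genes that every cell uses are also listed near 0, namely 2 of 12 RNA polymerase II subunits, 1 of 8 subunits of the CCT chaperonin and 2 of 13 of the 20S proteasome at a mean under 50 normalized counts, so a low listing of a repair gene is not read here as low mRNA.

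To show the sequence context of genes that move together, the annotated promoters of 4 of the genes, from 250 bases before to 50 bases after the start, are given from RefSeq (GRCh38.p14), where 30 of the 35 genes have an entry. EXO1, FANCD2 and FANCA are shown because their mRNA was lower in the knockouts and with TGF-β, and ATM because it was higher in the knockouts. BRCA1 and FANCI were also lower in both knockouts and with TGF-β but are not shown. FANCI has no entry, and the BRCA1 entry, which holds no match, lies before the start of its longest annotated transcript. Capitals mark a match to the letters TTTCCCGC, TTTGGCGC, TTTCGCGC or TTTGCCGC on either strand, which are forms of the E2F motif known from promoters of S phase genes.
EXO1, chr1:241847954-241848253, plus strand: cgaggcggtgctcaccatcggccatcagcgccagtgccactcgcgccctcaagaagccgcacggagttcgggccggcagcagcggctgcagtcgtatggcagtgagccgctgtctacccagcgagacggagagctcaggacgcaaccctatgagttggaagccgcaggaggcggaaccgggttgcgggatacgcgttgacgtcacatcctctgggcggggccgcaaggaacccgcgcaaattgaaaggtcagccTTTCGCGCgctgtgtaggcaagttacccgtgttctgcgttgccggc
FANCD2, chr3:10026187-10026486, plus strand: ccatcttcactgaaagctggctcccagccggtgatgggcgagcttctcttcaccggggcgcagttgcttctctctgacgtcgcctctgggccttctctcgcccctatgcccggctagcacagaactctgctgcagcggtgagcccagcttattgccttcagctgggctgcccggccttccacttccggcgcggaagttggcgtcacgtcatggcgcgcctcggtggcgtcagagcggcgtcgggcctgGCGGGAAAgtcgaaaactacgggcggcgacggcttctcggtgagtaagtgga
FANCA, chr16:89816598-89816897, minus strand: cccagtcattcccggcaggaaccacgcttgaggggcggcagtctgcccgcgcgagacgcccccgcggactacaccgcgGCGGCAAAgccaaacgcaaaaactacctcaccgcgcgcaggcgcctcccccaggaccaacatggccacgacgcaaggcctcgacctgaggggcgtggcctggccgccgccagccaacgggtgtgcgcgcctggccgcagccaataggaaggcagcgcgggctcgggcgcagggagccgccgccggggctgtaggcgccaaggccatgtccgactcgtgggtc
ATM, chr11:108222817-108223116, plus strand: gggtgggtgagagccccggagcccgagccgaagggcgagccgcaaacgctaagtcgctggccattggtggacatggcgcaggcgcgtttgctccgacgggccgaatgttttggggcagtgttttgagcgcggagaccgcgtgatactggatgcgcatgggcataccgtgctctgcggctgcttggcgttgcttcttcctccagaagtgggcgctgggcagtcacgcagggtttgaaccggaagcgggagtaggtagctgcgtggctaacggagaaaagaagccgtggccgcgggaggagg
The match starts 2 bases before the annotated start in FANCD2, 172 bases before it in FANCA and at base 5 of the transcript in EXO1. ATM has no match in this window. Such a match was present in 7 of the 30 promoters (23.3%), in 10 of 25 promoters of proliferation markers (40.0%) and in 908 of 27305 promoters of all genes (3.3%). The other genes with a match were MSH3, PMS2, XRCC2 and XRCC6. Split by the correlation r with proliferation markers described below, 3 of 11 promoters (27.3%) had a match at r of at least 0.8. Below that r it was 3 of 17 (17.6%). These are matches of letters and not measured binding sites.

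Comparisons were tested with limma on log2(normalized count + 1) for 14585 genes, and 33 of the 35 genes passed the filter, which asked for 10 or more normalized counts in 2 or more libraries. ATR, the kinase of stalled replication forks, and MSH3, a mismatch sensor, did not pass, with at most 7.50 and 5.75 normalized counts and 9 and 8 libraries at 0. A gene is called when its adjusted p is under 0.05 and its change exceeds 2-fold, that is 1 on the log2 scale. Lower mRNA in such bulk libraries can come from fewer cells expressing the gene or from less RNA per cell, which cannot be told apart.

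In KO1 against WT, 13 of the 33 genes were called lower and 3 higher, where 25% of all tested genes were called (13.1% lower and 12% higher). In KO2 against WT, 10 were called lower and 1 higher, against a background of 16.3% (7.29% lower and 9.02% higher). TGF-β-treated WT had 6 called lower and 0 higher, with 7.84% of all genes called (4.26% lower and 3.58% higher). Between the clones, 3 genes were called lower in KO1 than in KO2 and none higher, with 6.97% of all genes called (4.49% lower and 2.48% higher). Rescue against KO had 15 called higher and 1 lower, with 23.3% called among all genes (11.3% higher and 11.9% lower). The median log2 change over the 33 genes was -0.67 in KO1, -0.54 in KO2, -0.57 with TGF-β and 1.08 in Rescue against KO, where the median over all tested genes was 0. The 3 comparisons with WT share the WT libraries, and Rescue against KO shares the KO libraries with 2 of them, so these counts are not independent of each other. The sources differ on which knockout clone gave rise to the rescue lines, and against KO1 alone Rescue had 16 genes called and against KO2 alone 12. Apart from PMS2 in the knockouts and CHEK1 with TGF-β, the genes called lower against WT were Fanconi, strand exchange and resection genes, as the map of levels by library shows.

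**Figure D1:**
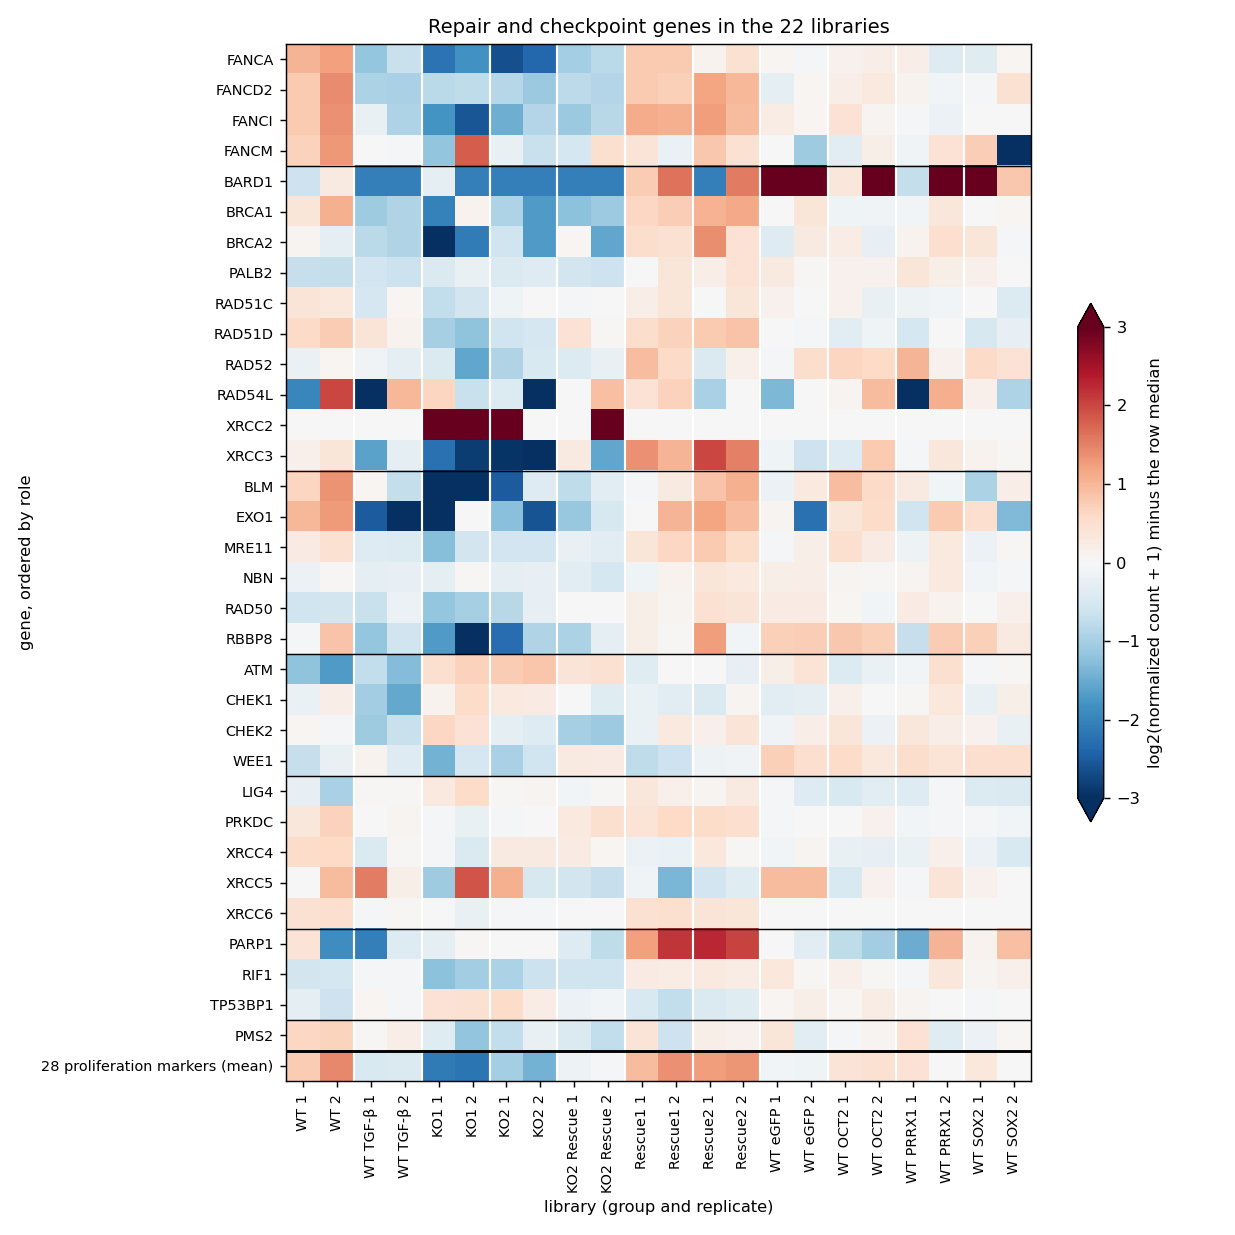
Level of the 33 tested genes in each of the 22 libraries, as log2(normalized count + 1) minus the row median (colour, blue low and red high, capped at 3 in either direction), with the genes ordered by role (horizontal lines) and the mean of 28 proliferation markers in the bottom row. The Fanconi rows FANCA, FANCD2 and FANCI are red in WT, Rescue1 and Rescue2 and blue in KO1, KO2, TGF-β-treated WT and KO2 rescue, the marker row is red in WT, Rescue1 and Rescue2 and bluest in KO1 and KO2, and ATM is bluest in WT.

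Proliferation markers moved in the same libraries. Of 28 tested markers of S and G2/M phase, 22 were called lower in KO1 (median log2 change -3.34), 21 in KO2 (-2.39) and 15 with TGF-β (-1.71), and none was called higher in these. In Rescue against KO, 24 were called higher and none lower, with a median of 2.57. MKI67, the Ki-67 antigen of cycling cells, was at 4088 and 6581 normalized counts in WT, 202 and 67.2 in KO1, 264 and 1105 in KO2 and 959 and 859 after TGF-β treatment. Summed fibroblast markers were between 223332.9 and 236444.5 in KO1, between 98935.1 and 102525.6 in KO2 and between 46306.4 and 47757 with TGF-β, against 801.8 to 1485.7 in Rescue1 and Rescue2. All 5 of these markers were above 0 in at least 1 library. The large sums rest on DCN (up to 234809.3) and COL1A1 (up to 46597.7), since PDGFRA, LUM and COL1A2 never exceeded 231.1, 767.9 and 28.1. Of the 5, 3 were called higher in KO1, in KO2 and with TGF-β. Their log2 changes ran from -1.45 to 9.26 in KO1, 0.53 to 8.02 in KO2 and 1.52 to 4.18 with TGF-β. Summed renal epithelial markers were between 13963.9 and 13978.7 in KO1, 18810.9 and 19930.6 in KO2 and 24140.6 and 26186.5 in WT. The largest part of the WT sum was KRT8, at a mean of 16032.85. Single markers went both ways, and of 14 tested 3 were called higher and 4 lower in KO1. In KO2 2 were called higher and 2 lower. Their log2 changes ran from -4.5 to 3.3 in KO1 and from -5.11 to 2.83 in KO2. Summed endothelial markers were between 125.6 and 154.5 in KO1 and KO2, against 5 to 40.3 in WT, 5.1 to 5.7 with TGF-β and 8.8 to 125.8 in Rescue1 and Rescue2. Of 3 tested endothelial markers 1 was called higher in each knockout, and PECAM1 was at 0 in WT and in the median library. Summed leukocyte markers were between 147.4 and 368.1 in the knockouts, 105.6 and 147.4 in WT and 0 and 56.9 in Rescue1 and Rescue2, and CD68 was called lower in Rescue against KO by a log2 change of -5.8. The part of proliferation or of a change in cell state in the gene changes given here was not tested.

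**Figure D2:**
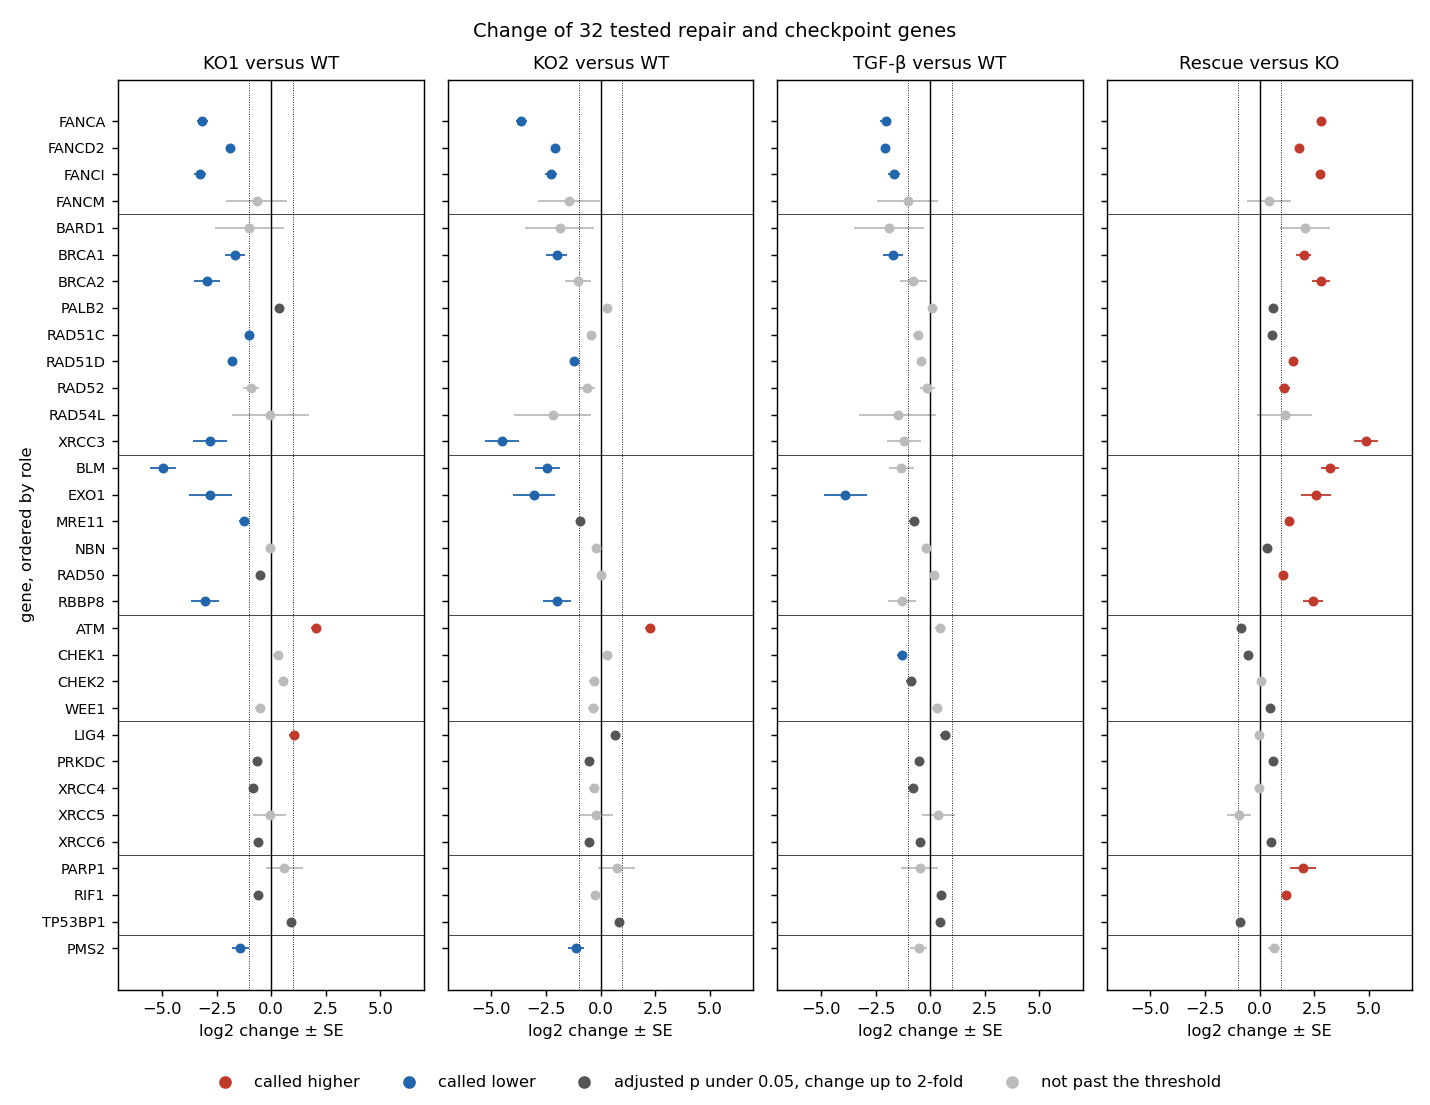
Log2 change of 32 tested genes in KO1, KO2 and TGF-β-treated WT against WT and in Rescue against KO, with bars of 1 SE from the limma fit, dotted lines at 2-fold and genes ordered by role. FANCA, FANCD2 and FANCI lie left of -1 in the first 3 panels and right of 1 in the last, while ATM lies right of 1 in the knockouts and not past the threshold with TGF-β; XRCC2, listed at 0 in most libraries, is not drawn.

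Of the 4 Fanconi genes 3 were called lower in KO1, in KO2 and with TGF-β, and the same 3 called higher in Rescue against KO. FANCI (ENSG00000140525, chr15:89243945-89317261, plus strand), partner of FANCD2 in the clamp that marks a crosslink, was at 1360.1 and 2030.4 in WT, 667 and 408 after TGF-β treatment, 225 and 131 in KO1 and 282 and 423 in KO2. It was at 359 and 442 in KO2 rescue, 1688 and 1647 in Rescue1 and 1860.3 and 1519 in Rescue2, and at 696 to 1064 in the 8 other transduced libraries. All knockout libraries lay below all WT and Rescue libraries. The log2 change was -3.27 (SE 0.28, adjusted p = 2.7e-07) in KO1, -2.26 (SE 0.28, adjusted p = 2.0e-05) in KO2, -1.67 (SE 0.28, adjusted p = 7.0e-04) with TGF-β and 2.78 (SE 0.20, adjusted p = 2.8e-08) in Rescue against KO.

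FANCD2 (ENSG00000144554, chr3:10026370-10101932, plus strand), the other member of that clamp, was at 771 and 1187 in WT, 229.6 and 225 after TGF-β treatment, 253 and 264 in KO1, 245 and 206 in KO2 and 259 and 243 in KO2 rescue. Rescue1 had 769 and 737, Rescue2 1006 and 895 and the other transduced libraries 371 to 608. The 8 libraries of TGF-β-treated WT, KO1, KO2 and KO2 rescue thus lay between 206 and 264 normalized counts, below every other library. The change was -1.88 (SE 0.20, adjusted p = 2.0e-06) in KO1, -2.09 (SE 0.20, adjusted p = 1.2e-06) in KO2 and -2.07 (SE 0.20, adjusted p = 4.4e-06) with TGF-β, and 1.81 (SE 0.14, adjusted p = 5.7e-08) in Rescue against KO. FANCA (ENSG00000187741, chr16:89726683-89816977, minus strand), a subunit of the core complex that ubiquitinates the clamp, was at 395 and 456 in WT, 86.5 and 121 after TGF-β treatment, 40.8 and 54.0 in KO1 and 30.1 and 36.8 in KO2. In KO2 rescue it was at 94.8 and 109.5, in Rescue1 at 336 and 335, in Rescue2 at 208 and 264 and in the others at 148 to 223. It fell further in the knockouts than with TGF-β, with a direct difference of -1.1 (SE 0.25, adjusted p = 0.00309) for KO1 and -1.59 (SE 0.25, adjusted p = 2.2e-04) for KO2 against TGF-β (22.7% and 16.9% of all genes were called in these contrasts). Its change was -3.15 (SE 0.25, adjusted p = 1.3e-07) in KO1, -3.63 (SE 0.25, adjusted p = 5.0e-08) in KO2, -2.04 (SE 0.25, adjusted p = 5.3e-05) with TGF-β and 2.8 (SE 0.18, adjusted p = 8.4e-09) in Rescue against KO. FANCM, the translocase that recruits the complex, ranged from 0 to 189 normalized counts and was called in none of the comparisons.

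Among the 10 strand exchange genes, 5 were called lower in KO1, 3 in KO2 and 1 with TGF-β, and 5 were called higher in Rescue against KO. BRCA1 (ENSG00000012048, chr17:43044295-43170245, minus strand), the scaffold that favours resection, was at 521 and 847 in WT, 192 and 215 after TGF-β treatment, 98.9 and 438 in KO1, 214 and 124 in KO2 and 172 and 189.9 in KO2 rescue. The Rescue1 libraries had 623 and 679, the Rescue2 libraries 842 and 888 and the other transduced libraries 371 to 520.3. KO1 replicate 2 lay nearer to WT than to KO1 replicate 1. The change was -1.67 (SE 0.47, adjusted p = 0.0107) in KO1, -2.02 (SE 0.47, adjusted p = 0.00411) in KO2, -1.7 (SE 0.47, adjusted p = 0.0201) with TGF-β and 2.02 (SE 0.33, adjusted p = 1.5e-04) in Rescue against KO. These calls against WT depend on single libraries. The KO1 call was lost without KO1 replicate 1 (-0.60, adjusted p = 0.141) or WT replicate 2 (-1.32, adjusted p = 0.0961). The KO2 call was lost without KO2 replicate 2 (-1.63, adjusted p = 0.0542). With TGF-β it was lost without WT replicate 2 (-1.35, adjusted p = 0.169) or either treated library (-1.62, adjusted p = 0.107, and -1.78, adjusted p = 0.0712). In such fits a group left with 1 library is assumed to vary like the others.

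BRCA2, a mediator of strand invasion, was at 182 and 143 in WT, 98.0 and 91.6 after TGF-β treatment, 9.75 and 39.8 in KO1 and 113 and 52.9 in KO2. KO2 rescue had 179 and 58.2, Rescue1 249 and 239, Rescue2 455 and 233 and the other transduced libraries 132 to 245. Only the KO1 libraries were clear of all others. The change was -2.96 (SE 0.60, adjusted p = 0.00106) in KO1 and 2.8 (SE 0.42, adjusted p = 6.8e-05) in Rescue against KO, while KO2 gave -1.05 (SE 0.60, adjusted p = 0.221) and TGF-β -0.76 (SE 0.60, adjusted p = 0.471). PALB2, the bridge between BRCA1 and BRCA2 and the strand exchange gene with the highest mean, was at 287 and 281 in WT, 307 and 294 after TGF-β treatment, 343 and 398 in KO1 and 344 and 355 in KO2. KO2 rescue had 314 and 298, Rescue1 464 and 598, Rescue2 526 and 625 and the others 459 to 598. For PALB2 all 10 libraries in 2% serum were below all 12 in 10% serum. These 12 are also all transduced and drug-selected lines, and the part of serum cannot be told apart from that.

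RAD51D, RAD51C, XRCC3 and XRCC2 encode related proteins that assist strand exchange. RAD51D was at 529.7 and 602 in WT, 463 and 379 after TGF-β treatment, 176 and 153 in KO1 and 234 and 249.5 in KO2. It stood at 475 and 361 in KO2 rescue, 509.6 and 573 in Rescue1, 604 and 636 in Rescue2 and 245 to 355 in the others. Its 4 knockout values did not overlap those of WT, TGF-β or Rescue. The change was -1.78 (SE 0.18, adjusted p = 2.0e-06) in KO1, -1.22 (SE 0.18, adjusted p = 1.2e-04) in KO2 and 1.53 (SE 0.13, adjusted p = 1.8e-07) in Rescue against KO, and -0.43 (SE 0.18, adjusted p = 0.135) with TGF-β. KO1 was below TGF-β by a direct log2 difference of -1.35 (SE 0.18, adjusted p = 3.7e-05). RAD51C was at 364 and 345 in WT, 196 and 289.7 after TGF-β treatment, 165 and 189 in KO1 and 254 and 276 in KO2. The libraries labelled KO2 rescue had 271 and 281, Rescue1 319 and 354, Rescue2 277 and 358 and the others 207 to 304. Its KO1 change of -1.0 (SE 0.21, adjusted p = 0.00122) sits at the 2-fold limit and dropped inside it without KO1 replicate 1 (-0.91, adjusted p = 0.011) or WT replicate 1 (-0.97, adjusted p = 0.0106). XRCC3 was at 50.9 and 59.5 in WT, 14.4 and 37.7 after TGF-β treatment, 8.95 and 5.48 in KO1 and 5.11 and 0 in KO2. In KO2 rescue it was at 55.4 and 14.9, in Rescue1 at 119 and 93.5, in Rescue2 at 188 and 131 and in the others at 29.5 to 79.4. The 4 knockout values are the lowest of the 22 and the 4 Rescue values the highest, with -2.8 (SE 0.78, adjusted p = 0.00977) in KO1, -4.5 (SE 0.78, adjusted p = 4.0e-04) in KO2 and 4.87 (SE 0.55, adjusted p = 3.7e-06) in Rescue against KO. The KO1 call was lost without KO1 replicate 2 (-2.49, adjusted p = 0.0629) or WT replicate 2 (-2.69, adjusted p = 0.0506). At so few counts the size of these changes depends on the added count of 1.

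XRCC2 was listed at 0 in 18 libraries, including all WT, TGF-β, Rescue and other transduced ones, at 15.5 and 45.5 in KO1, 23.4 and 0 in KO2 and 0 and 45.4 in KO2 rescue. It passed the tests as higher in KO1 and as lower in Rescue against KO, and since a 0 here can be a failed estimate no fold is given. The KO1 call was lost without KO1 replicate 2 (adjusted p = 0.109) or without either WT library (adjusted p = 0.0632 and 0.0639), and the Rescue call without KO2 replicate 1 (adjusted p = 0.0642). RAD52, which anneals single strands, was at 175 and 208 in WT, 185 and 166 after TGF-β treatment, 149 and 67.0 in KO1 and 107 and 145 in KO2. KO2 rescue had 149 and 172, Rescue1 379.9 and 297, Rescue2 147 and 221 and the others 192 to 406. It passed only in Rescue against KO (1.14, SE 0.25, adjusted p = 0.00191), a call lost without KO1 replicate 2 (0.85, adjusted p = 0.00886) or Rescue2 replicate 2 (0.99, adjusted p = 0.0119). BARD1, the partner of BRCA1, ranged from 0 to 105 and RAD54L, a motor of strand exchange, from 0 to 60.5 normalized counts, and neither was called in any comparison.

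Among the resection and helicase genes, 4 of 6 were called lower in KO1, 3 in KO2 and 1 with TGF-β, and 5 of 6 were called higher in Rescue against KO. BLM (ENSG00000197299, chr15:90717346-90816166, plus strand), the helicase that dissolves recombination intermediates, was at 209 and 343 in WT, 141 and 81.1 after TGF-β treatment, 11.7 and 4.99 in KO1 and 22.9 and 102 in KO2. It was at 79.4 and 107 in KO2 rescue, 128 and 163 in Rescue1, 242 and 282 in Rescue2 and 68.6 to 255 in the others. KO1 held the 2 lowest values, and the KO2 libraries differed from each other. The change was -4.94 (SE 0.59, adjusted p = 7.6e-06) in KO1, -2.44 (SE 0.59, adjusted p = 0.00519) in KO2 and 3.23 (SE 0.41, adjusted p = 1.4e-05) in Rescue against KO, and TGF-β gave -1.32 (SE 0.59, adjusted p = 0.154). The KO2 call was lost without KO2 replicate 1 (-1.38, adjusted p = 0.0916) or WT replicate 2 (-2.08, adjusted p = 0.0532).

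RBBP8, which encodes the resection factor CtIP, was at 151 and 280.4 in WT, 69.3 and 102 after TGF-β treatment, 47.2 and 12.6 in KO1 and 30.9 and 82.5 in KO2. It stood at 80.0 and 128 in KO2 rescue, 176 and 159 in Rescue1, 369 and 147 in Rescue2 and 95.9 to 271 in the others. All 4 knockout values were below all WT and Rescue values. The change was -3.01 (SE 0.64, adjusted p = 0.00151) in KO1, -2.0 (SE 0.64, adjusted p = 0.0278) in KO2 and 2.45 (SE 0.45, adjusted p = 4.1e-04) in Rescue against KO, with the KO2 call lost without KO2 replicate 1 (-1.31, adjusted p = 0.25) or WT replicate 2 (-1.56, adjusted p = 0.185). EXO1, a long-range resection nuclease, was at 125 and 152 in WT, 10.2 and 6.92 after TGF-β treatment, 5.56 and 61.0 in KO1 and 25.6 and 9.51 in KO2. The libraries labelled KO2 rescue had 27.6 and 44.4, Rescue1 63.0 and 126, Rescue2 143 and 119 and the others 12.3 to 107. Its change was -2.78 (SE 0.97, adjusted p = 0.0339) in KO1, -3.06 (SE 0.97, adjusted p = 0.0281) in KO2, -3.88 (SE 0.97, adjusted p = 0.0119) with TGF-β and 2.57 (SE 0.69, adjusted p = 0.00684) in Rescue against KO. The calls against WT are fragile, since the KO1 call was lost without KO1 replicate 1 (-1.16, adjusted p = 0.362) or either WT library (-2.93, adjusted p = 0.087, and -2.64, adjusted p = 0.122). The KO2 call was lost without KO2 replicate 2 (-2.39, adjusted p = 0.189) or either WT library (-3.2, adjusted p = 0.0772, and -2.91, adjusted p = 0.112), and that for TGF-β without WT replicate 2 (-3.74, adjusted p = 0.0721) or treated replicate 2 (-3.63, adjusted p = 0.0749).

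The 3 subunits of the MRE11 complex, the first sensor of a broken end, did not move alike in the knockouts, though all 3 rose in Rescue against KO. MRE11, its nuclease, was at 649.6 and 750.2 in WT, 414 and 412 after TGF-β treatment, 226 and 373 in KO1 and 364 and 366 in KO2. In KO2 rescue it was at 467 and 438, in Rescue1 at 697 and 846, in Rescue2 at 943 and 800.5 and in the others at 481 to 759. All knockout values were below all others, with -1.26 (SE 0.21, adjusted p = 1.8e-04) in KO1, -0.93 (SE 0.21, adjusted p = 0.00303) in KO2, -0.76 (SE 0.21, adjusted p = 0.0196) with TGF-β and 1.32 (SE 0.15, adjusted p = 3.1e-06) in Rescue against KO. The KO1 change was -0.90, adjusted p = 0.00232 without KO1 replicate 1, and the change with TGF-β did not pass without WT replicate 2 (-0.65, adjusted p = 0.137) or either treated library (-0.76, adjusted p = 0.0863, and -0.75, adjusted p = 0.0854). RAD50, its ATPase, was at 555 and 569 in WT, 528 and 741 after TGF-β treatment, 375 and 423 in KO1 and 469 and 702 in KO2. KO2 rescue had 827 and 831, Rescue1 943 and 889, Rescue2 1158 and 1091 and the others 792 to 999, and gave -0.50 (SE 0.17, adjusted p = 0.0295) in KO1, 0.03 (SE 0.17, adjusted p = 0.929) in KO2 and 1.08 (SE 0.12, adjusted p = 2.8e-06) in Rescue against KO (0.94, adjusted p = 8.0e-06 without KO2 replicate 1). Its KO1 change did not pass without KO1 replicate 1 (-0.41, adjusted p = 0.133) or either WT library (-0.52, adjusted p = 0.0788, and -0.48, adjusted p = 0.103). All 12 libraries in 10% serum were above all WT, TGF-β-treated and knockout libraries for RAD50. NBN, the subunit that docks ATM and the most abundant mRNA of this group, was at 1535 and 1784 in WT, 1453 and 1469.9 after TGF-β treatment, 1419 and 1789.7 in KO1 and 1432 and 1463 in KO2. It stood at 1388 and 1207 in KO2 rescue, 1586 and 1876 in Rescue1, 2224 and 2129 in Rescue2 and 1658 to 2146 in the others. Its knockout changes of -0.05 (SE 0.12, adjusted p = 0.757) and -0.19 (SE 0.12, adjusted p = 0.257) did not pass the test. In Rescue against KO it rose by 0.35 (SE 0.08, adjusted p = 0.00298), less than 2-fold.

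Of the 4 tested genes of damage kinases and checkpoint, 1 was called higher in KO1 and in KO2 and 1 lower with TGF-β. ATM (ENSG00000149311, chr11:108223044-108369102, plus strand), the kinase activated by double-strand breaks, was at 970.3 and 681 in WT, 1345 and 904 after TGF-β treatment, 3109.7 and 3614 in KO1, 3792 and 3970.3 in KO2 and 2916 and 3073 in KO2 rescue. Rescue1 had 1725 and 2205, Rescue2 2256 and 1891, WT eGFP 2533 and 2978, WT OCT2 1666 and 1932, WT PRRX1 2108 and 3102 and WT SOX2 2155 and 2282. The WT and TGF-β libraries were the 4 lowest of the 22 and the knockouts held the 4 highest. ATM rose by 2.04 (SE 0.21, adjusted p = 2.3e-06) in KO1 and by 2.25 (SE 0.21, adjusted p = 1.4e-06) in KO2, and gave 0.44 (SE 0.21, adjusted p = 0.201) with TGF-β. It was above TGF-β-treated WT by a direct difference of 1.6 (SE 0.21, adjusted p = 3.0e-05) in KO1 and 1.81 (SE 0.21, adjusted p = 1.2e-05) in KO2. ATM also rose by 1.75 (SE 0.21, adjusted p = 2.6e-05) in WT eGFP against WT. It fell by less than 2-fold in Rescue against KO (-0.85 (SE 0.15, adjusted p = 3.3e-04)). Rescue did not differ from WT eGFP beyond the threshold, at -0.45 (SE 0.19, adjusted p = 0.083). By order of group means ATM ran from WT and TGF-β through WT OCT2, Rescue and WT SOX2 to WT PRRX1, WT eGFP, KO2 rescue, KO1 and KO2, and the values of neighbouring groups overlap between WT and TGF-β and throughout from WT OCT2 to KO2 rescue.

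**Figure D3:**
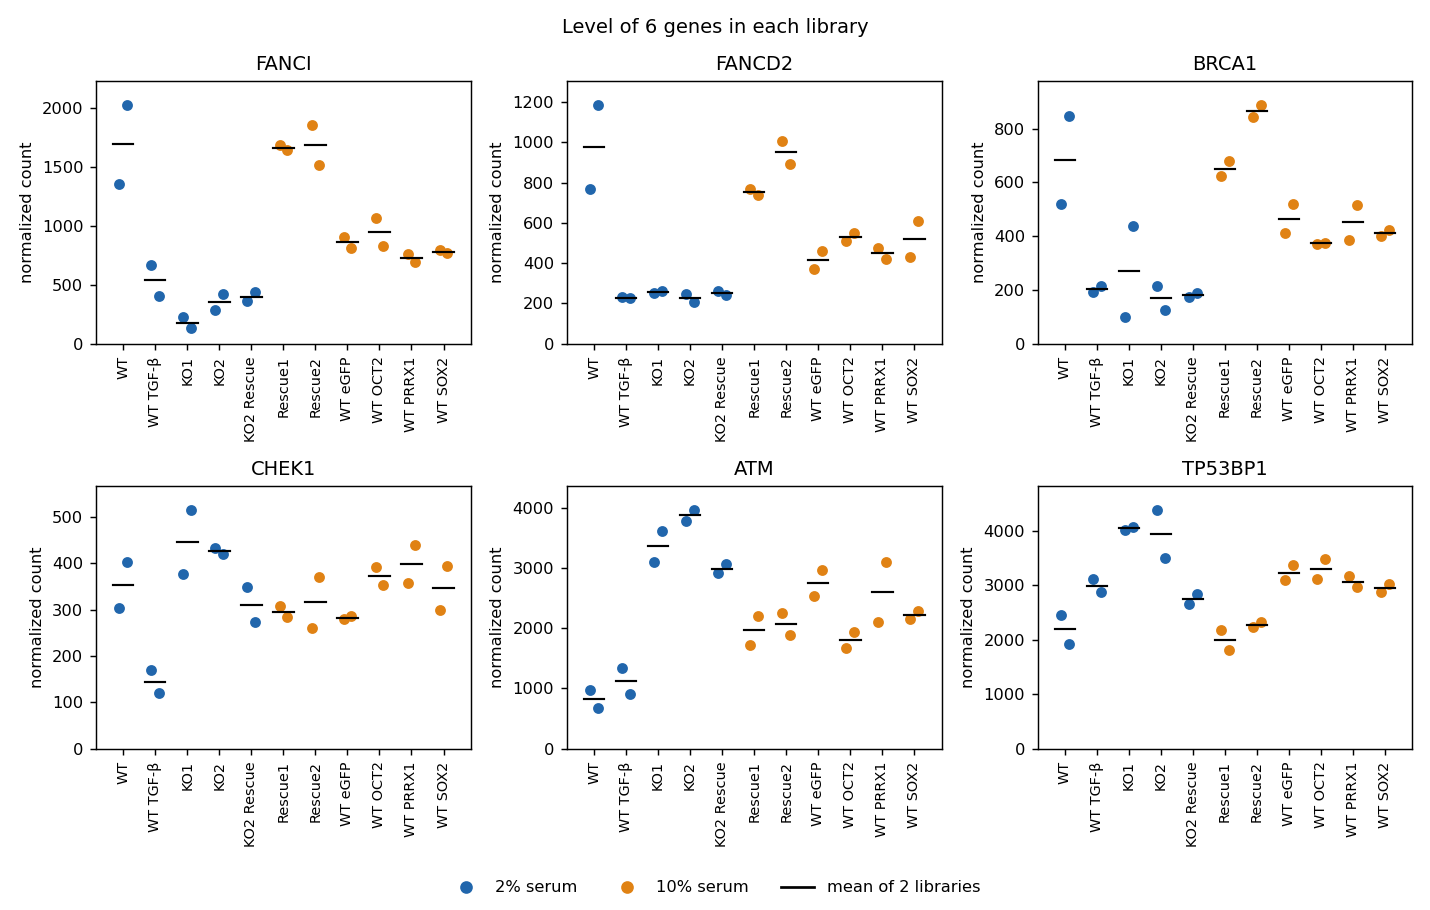
Normalized counts of 6 genes in each of the 22 libraries (points) with the mean of the 2 libraries of each group (lines), on linear axes from 0, blue for 2% serum and orange for 10% serum. FANCI and FANCD2 are low in TGF-β-treated WT, KO1, KO2 and KO2 rescue, CHEK1 is lowest in TGF-β-treated WT, and ATM and TP53BP1 are highest in the knockouts.

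CHEK1 (ENSG00000149554, chr11:125625163-125676255, plus strand), the checkpoint kinase downstream of ATR, was at 304 and 403 in WT, 169 and 119.8 after TGF-β treatment, 376 and 515 in KO1 and 433 and 419 in KO2. The libraries labelled KO2 rescue had 348 and 274, Rescue1 307 and 283, Rescue2 260.2 and 371 and the others 279 to 439. The 2 TGF-β libraries were below the other 20. CHEK1 fell with TGF-β (-1.29 (SE 0.23, adjusted p = 0.00121)) and gave 0.33 (SE 0.23, adjusted p = 0.288) in KO1 and 0.28 (SE 0.23, adjusted p = 0.416) in KO2, and the direct difference from TGF-β was 1.62 (SE 0.23, adjusted p = 6.0e-05) for KO1 and 1.58 (SE 0.23, adjusted p = 1.1e-04) for KO2. Proliferation markers were lower than in WT in all 3 of these groups, as given above. CHEK2, the checkpoint kinase downstream of ATM, ranged from 116 to 383 normalized counts and was lowest with TGF-β and in KO2 rescue. Its change was 0.54 (SE 0.22, adjusted p = 0.0731) in KO1, -0.32 (SE 0.22, adjusted p = 0.329) in KO2 and -0.87 (SE 0.22, adjusted p = 0.0142) with TGF-β, which did not pass without either WT library (-0.82, adjusted p = 0.0661, and -0.92, adjusted p = 0.054) or treated replicate 1 (-0.66, adjusted p = 0.146). WEE1, which holds cells in G2 by inhibiting CDK1, was at 455 and 632 in WT, 787 and 561 after TGF-β treatment, 275 and 520.4 in KO1 and 376 and 483 in KO2. In KO2 rescue it was at 885 and 876, in Rescue1 at 436 and 479, in Rescue2 at 658 and 691 and in the others at 921 to 1203. The 8 libraries of transduced WT cells held the highest values, and WEE1 did not pass against WT in either knockout or with TGF-β.

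Among the end joining genes, 1 of 5 was called higher in KO1 and none called in KO2 or with TGF-β. XRCC6, which encodes Ku70 and at 3807 normalized counts per kb of transcript was the most abundant of all 35 genes per length, was at 10187 and 10533 in WT, 7217 and 7667 after TGF-β treatment, 7389.9 and 6332 in KO1 and 7294 and 7207 in KO2. KO2 rescue had 7420.5 and 7350.1, Rescue1 10184 and 10339, Rescue2 9688 and 9589.8 and the others 7309 to 7506. It took 2 levels, with WT and Rescue at or above 9590 and every other library at or below 7667. It fell by less than 2-fold in KO1 (-0.60 (SE 0.06, adjusted p = 1.3e-06)), KO2 (-0.51 (SE 0.06, adjusted p = 1.0e-05)), with TGF-β (-0.48 (SE 0.06, adjusted p = 5.4e-05)) and in WT eGFP against WT (-0.48 (SE 0.06, adjusted p = 2.8e-05)). PRKDC, the catalytic subunit of DNA-PK, was between 4969 and 9343 normalized counts. WT eGFP had 5598.7 and 5715.5, a log2 change of -0.55 against WT. PRKDC also fell in KO1 (-0.66 (SE 0.10, adjusted p = 1.1e-04)), KO2 (-0.54 (SE 0.10, adjusted p = 9.0e-04)) and with TGF-β (-0.49 (SE 0.10, adjusted p = 0.00374)). With WT replicate 2 left out, the last of these was -0.32, adjusted p = 0.0557.

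LIG4, the ligase of end joining, went the other way. It was at 386 and 235 in WT, 475 and 476 after TGF-β treatment, 569 and 675 in KO1 and 471 and 488 in KO2. It stood at 436 and 475 in KO2 rescue, 584 and 515 in Rescue1, 486 and 559 in Rescue2 and 334 to 452 in the others. LIG4 rose in KO1 (1.04, SE 0.20, adjusted p = 7.1e-04), KO2 (0.67, SE 0.20, adjusted p = 0.0198) and with TGF-β (0.66, SE 0.20, adjusted p = 0.0335), with WT replicate 2 the lowest of all libraries. The KO1 change dropped under 2-fold without KO1 replicate 2 (0.92, adjusted p = 0.0101), without WT replicate 2 (0.68, adjusted p = 0.0116) and when library totals were made equal (a log2 change of 0.63). The KO2 change no longer passed without WT replicate 2 (0.31, adjusted p = 0.273) or either KO2 library (0.70, adjusted p = 0.0677, and 0.64, adjusted p = 0.0905). That with TGF-β did not pass without WT replicate 2 (0.30, adjusted p = 0.389) or either treated library (0.66, adjusted p = 0.127, and 0.66, adjusted p = 0.122). XRCC4, the cofactor of LIG4, was between 125 and 264 normalized counts and highest in WT, with -0.81 (SE 0.21, adjusted p = 0.0066) in KO1 and -0.78 (SE 0.21, adjusted p = 0.0183) with TGF-β. The first was lost without KO1 replicate 2 (-0.61, adjusted p = 0.0677), and the second without either WT library (-0.81, adjusted p = 0.0558, and -0.76, adjusted p = 0.0947) or treated replicate 1 (-0.55, adjusted p = 0.195). XRCC5, which encodes Ku80, was listed at 88.9 normalized counts per kb, varied from 90.9 to 878 and differed between the 2 libraries of KO1 from 112 to 878, so no change could be detected. Ku70 and Ku80 act as a pair, and their unequal listing is given with the limit on low values stated above.

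TP53BP1 (ENSG00000067369, chr15:43403061-43510728, minus strand), which encodes 53BP1, the shield against resection, was at 2449 and 1926 in WT, 3107 and 2866 after TGF-β treatment, 4017 and 4068 in KO1, 4380.0 and 3497 in KO2 and 2646 and 2836 in KO2 rescue. Rescue1 had 2178 and 1804, Rescue2 2223 and 2319.9 and the other transduced libraries 2864 to 3472. The 4 knockout libraries were the highest of the 22. It rose by less than 2-fold in KO1 (0.90, SE 0.12, adjusted p = 3.6e-05), KO2 (0.85, SE 0.12, adjusted p = 9.2e-05) and with TGF-β (0.46, SE 0.12, adjusted p = 0.0184), and fell in Rescue against KO (-0.91 (SE 0.09, adjusted p = 7.4e-07)). The change with TGF-β did not pass without WT replicate 2 (0.28, adjusted p = 0.217) or treated replicate 1 (0.40, adjusted p = 0.13). RIF1, the effector that 53BP1 recruits, was at 926 and 946 in WT, 1332 and 1313 after TGF-β treatment, 581 and 655 in KO1 and 706 and 872 in KO2. The libraries labelled KO2 rescue had 897 and 896, Rescue1 1614 and 1589, Rescue2 1673 and 1587 and the others 1295 to 1706. Unlike TP53BP1, RIF1 was lowest in the knockouts, with -0.60 (SE 0.13, adjusted p = 0.00177) in KO1, -0.25 (SE 0.13, adjusted p = 0.168) in KO2, 0.50 (SE 0.13, adjusted p = 0.015) with TGF-β and 1.21 (SE 0.09, adjusted p = 5.1e-08) in Rescue against KO. The RIF1 change with TGF-β did not pass without any 1 of the 4 libraries, at adjusted p from 0.0598 without WT replicate 1 to 0.0802 without treated replicate 1. The 12 libraries in 10% serum held 12 of the 14 highest RIF1 values. They are also all transduced and drug-selected lines, and the part of serum cannot be told apart from that. PARP1, the sensor of nicked DNA, was listed at only 16.0 and 2.54 in WT, 2.13 and 8.94 after TGF-β treatment, 9.59 and 12.2 in KO1 and 12 and 12 in KO2. In KO2 rescue it was at 8.96 and 6.57, in Rescue1 at 29.2 and 56.2, in Rescue2 at 61.4 and 51.3 and in the others at 3.60 to 25.0. Its change in Rescue against KO was 1.98 (SE 0.61, adjusted p = 0.015), which without Rescue1 replicate 2 was 1.75, adjusted p = 0.0567.

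PMS2, an endonuclease subunit of mismatch repair, was at 175 and 182 in WT, 116 and 131 after TGF-β treatment, 88.4 and 49.9 in KO1 and 68.3 and 96.7 in KO2. KO2 rescue had 84.4 and 68.3, Rescue1 149 and 74.0, Rescue2 129 and 124 and the others 87.7 to 154. It was called lower in KO1 (-1.41 (SE 0.38, adjusted p = 0.00835)) and KO2 (-1.12 (SE 0.38, adjusted p = 0.0383)), and the value is uncertain because near-identical copies share its reads, of which PMS2CL averaged 217 normalized counts. The KO1 call was lost without KO1 replicate 2 (-1.0, adjusted p = 0.0939), and the KO2 call without any 1 of the 4 libraries (KO2 replicate 1 -0.88, adjusted p = 0.222, KO2 replicate 2 -1.37, adjusted p = 0.0515, WT replicate 1 -1.15, adjusted p = 0.105, WT replicate 2 -1.1, adjusted p = 0.127).

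Rescue was also set against WT eGFP, the comparison in which serum is matched and both sides were transduced. Parent cells, selection drug and single-colony origin still differ, and their part cannot be told apart from that of SETD2. There 2 of 33 genes were called higher and 1 lower, 9.09% of the 33, with 13.1% of all genes called (6.47% higher and 6.66% lower). With library totals made equal, 4 were called higher and none lower. The genes called were FANCD2 (1.03, SE 0.17, adjusted p = 3.1e-04), PARP1 (2.07, SE 0.74, adjusted p = 0.0483) and, lower, WEE1 (-1.02 (SE 0.21, adjusted p = 0.00198)). FANCD2 dropped under 2-fold without Rescue2 replicate 1 (0.99, adjusted p = 0.00153) or WT eGFP replicate 1 (0.87, adjusted p = 0.012), and WEE1 without Rescue1 replicate 1 (-0.98, adjusted p = 0.00694) or WT eGFP replicate 1 (-0.92, adjusted p = 0.0362). The PARP1 call was lost without any 1 of the 6 libraries, at adjusted p from 0.051 without Rescue1 replicate 1 to 0.194 without WT eGFP replicate 2. Genes that passed at less than 2-fold were FANCI (0.96, SE 0.24, adjusted p = 0.00784), RAD51D (0.73, SE 0.16, adjusted p = 0.00296), PRKDC, MRE11 and XRCC6 on the higher side and TP53BP1 (-0.60 (SE 0.11, adjusted p = 5.9e-04)) on the lower. FANCI did not pass without WT eGFP replicate 2 (0.88, adjusted p = 0.0703). MRE11 did not pass without any 1 of 4 of the libraries, at adjusted p from 0.076 without WT eGFP replicate 2 to 0.284 without WT eGFP replicate 1. Among proliferation markers, 11 of 28 were called higher and 1 lower in this comparison. SETD2 was 1.75 (SE 0.06, adjusted p = 3.5e-11) above WT eGFP in Rescue.

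WT eGFP was also compared with WT. There 2 genes were called higher and 2 lower, 12.1% of the 33, which is close to the 12.7% of all genes called (6.49% higher and 6.24% lower). FANCA (-1.13 (SE 0.25, adjusted p = 0.00389)) and FANCD2 (-1.21 (SE 0.20, adjusted p = 3.1e-04)) were lower, and ATM and WEE1 (1.07, SE 0.24, adjusted p = 0.00443) higher. Without WT replicate 2 the FANCD2 change was -0.90, adjusted p = 0.00516, and WEE1 was not called without WT replicate 1 (0.83, adjusted p = 0.0539) or WT eGFP replicate 1 (0.97, adjusted p = 0.0444). Proliferation markers were lower here too, with 10 of 28 called and a median of -1.3. Within 10% serum, none of the 33 genes was called in WT SOX2, WT OCT2 or WT PRRX1 against WT eGFP by limma, where 0.0206%, 0.0343% and 0.0411% of all genes were called and 986, 1026 and 673 genes had an unadjusted p under 0.05.

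The libraries labelled KO2 rescue were compared with KO2, in the same serum. There 3 of 33 genes were called higher and none lower, with 4.17% of all genes called (1.65% higher and 2.52% lower). These were FANCA (1.59, SE 0.25, adjusted p = 7.2e-04), XRCC3 (3.6, SE 0.78, adjusted p = 0.00721) and WEE1 (1.05, SE 0.24, adjusted p = 0.0125). The XRCC3 call was lost without KO2 replicate 2 (2.3, adjusted p = 0.1) or KO2 rescue replicate 1 (2.69, adjusted p = 0.106), and the WEE1 call without KO2 replicate 1 (0.86, adjusted p = 0.123) or either KO2 rescue library (1.04, adjusted p = 0.0704, and 1.05, adjusted p = 0.0701). FANCD2 was at 259 and 243 against 245 and 206 in KO2. In the same comparison summed fibroblast markers were between 38458.8 and 40965.2 in KO2 rescue against 98935.1 to 102525.6 in KO2, and summed renal epithelial markers between 28815.8 and 29491 against 18810.9 to 19930.6. Single renal epithelial markers went both ways, with 2 of 14 tested called higher, 1 lower and a median log2 change of 0.04. Of 28 proliferation markers 3 were called higher and none lower, with a median of 0.87. Their part in these gene changes was not tested.

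Which of the genes follow the proliferation markers was described by Pearson's r over the 11 group means, between each gene's mean log2 level and the mean of the 28 markers. The points share serum, scaling and library preparation, and r is given as a description. The marker mean was 8.02 in WT, 6.47 with TGF-β, 4.76 in KO1, 5.69 in KO2, 6.81 in KO2 rescue, 8.08 in Rescue1, 8.21 in Rescue2, 6.81 in WT eGFP, 7.34 in WT OCT2, 7.12 in WT PRRX1 and 7.09 in WT SOX2. Of the 33 genes 12 (36.4%) had an r of at least 0.8, where 4.5% of all tested genes did. They were MRE11 (0.96), FANCI (0.96), BLM (0.92), BRCA2 (0.92), FANCA (0.91), XRCC3 (0.88), RBBP8 (0.87), RAD51C (0.86), RAD51D (0.86), FANCD2 (0.86), BRCA1 (0.83) and EXO1 (0.82), that is, 3 Fanconi, 5 strand exchange and 4 resection genes. With KO1 and KO2 left out, 9 of the 33 (27.3%) reached 0.8, where 2.1% of all tested genes did. The end joining gene XRCC6 was then among the 9, at 0.9, while RBBP8 dropped to 0.5, RAD51D to 0.66, BLM to 0.76 and BRCA2 to 0.76.

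At the other end of this scale, 6 of the 33 genes (18.2%) had an r below 0, where 49.8% of all tested genes did, and they were TP53BP1 (-0.89), XRCC2 (-0.8), ATM (-0.56), XRCC5 (-0.45), LIG4 (-0.42) and CHEK1 (-0.18). Without KO1 and KO2 r was -0.81 for TP53BP1, -0.51 for XRCC5, -0.31 for XRCC2, -0.25 for ATM, 0.1 for LIG4 and 0.45 for CHEK1. XRCC2 was listed at 0 in 18 libraries, so its r rests on few values. The genes in between include XRCC6 (0.79), PRKDC (0.74), RIF1 (0.72) and PARP1 (0.41), so the end protection genes TP53BP1 and RIF1 lie far apart on the scale. The r of PARP1 rests on 2.13 to 61.35 normalized counts. XRCC6 reached 0.84 and PRKDC 0.82 when only S phase markers were used. RIF1 dropped to 0.15 without KO1 and KO2.

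**Figure D4:**
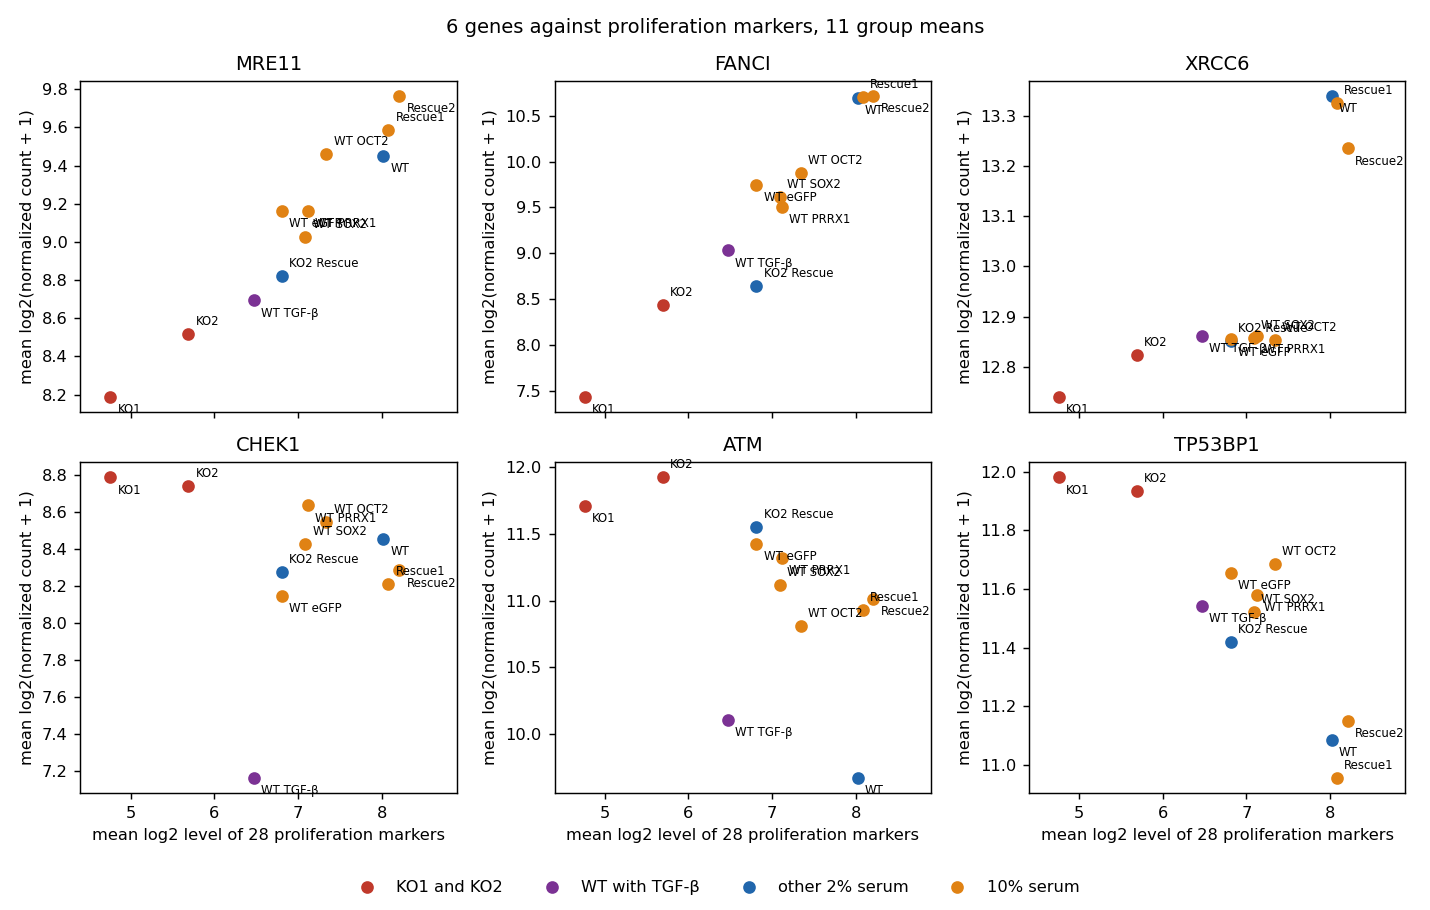
Mean log2(normalized count + 1) of 6 genes against the mean log2 level of 28 proliferation markers, for the 11 groups (points, red for KO1 and KO2, purple for TGF-β-treated WT, blue for the other groups in 2% serum and orange for 10% serum; the vertical axes differ). MRE11 and FANCI rise with the markers (r of 0.96 for both), TP53BP1 declines with them (-0.89), CHEK1 is set apart by TGF-β-treated WT, and ATM is lowest in WT.

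A wider list of 94 repair genes, of which 90 were tested, was counted in the same way. In KO1, 26 were called lower and 4 higher, in KO2 21 lower and 1 higher, and with TGF-β 9 lower and 1 higher. Among all tested genes 13.1%, 7.29% and 4.26% were called lower in these comparisons, and 12%, 9.02% and 3.58% higher. Rescue against KO had 25 called higher and none lower, where 11.3% of all tested genes were called higher and 11.9% lower. WT eGFP against WT had 10 called lower and 1 higher, where 6.24% of all tested genes were called lower and 6.49% higher. RAD54B, a relative of RAD54L, was among the lowest called in KO1, at 95.2 and 44.2 normalized counts in WT and listed at 0 in both KO1 libraries, so no fold is given. Among the lowest called were also the checkpoint adaptor CLSPN (-4.07 (SE 1.11, adjusted p = 0.0118)) and RAD51AP1 (-3.89 (SE 0.29, adjusted p = 1.1e-07)), a DNA-binding recombination factor, in KO2, and the phosphatase CDC25C (-2.58 (SE 0.66, adjusted p = 0.0136)) and RAD51AP1 (-2.03 (SE 0.29, adjusted p = 1.9e-04)) with TGF-β. SWI5, an accessory factor of recombination, rose in KO1 (1.56, SE 0.19, adjusted p = 1.1e-05) and KO2 (1.55, SE 0.19, adjusted p = 1.9e-05). Of 18 tested p53 target genes, 5 were called higher in KO1, 6 in KO2 and 1 with TGF-β, and none lower. Among all tested genes 12%, 9.02% and 3.58% were called higher in these comparisons. The median log2 change of the 18 was 0.16 in KO1, 0.52 in KO2 and 0.27 with TGF-β. KO1 had 9 of them above 0 and 9 below. At any fold, 7 passed as higher and 4 as lower in KO1, and 11 and 1 in KO2. The share of all tested genes that passed at any fold is not given here, so these counts have no background. In Rescue against WT eGFP 5 were called higher and 1 lower, with a median of 0.77, where 6.47% of all tested genes were called higher and 6.66% lower. CDKN1A, the p53-induced inhibitor of cyclin-dependent kinases, rose by less than 2-fold, with 0.60 (SE 0.09, adjusted p = 6.5e-05) in KO1, 0.32 (SE 0.09, adjusted p = 0.0133) in KO2 and 0.48 (SE 0.09, adjusted p = 0.0015) with TGF-β. CDKN1A also rose in Rescue against WT eGFP (0.75, SE 0.08, adjusted p = 3.5e-06). It fell in Rescue against KO (-0.55, SE 0.06, adjusted p = 3.7e-06) and in WT eGFP against WT (-0.85, SE 0.09, adjusted p = 5.9e-06).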

How the data were processed

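RNA-seq of 22 RPTEC libraries in 11 groups of 2 was analysed, with groups taken from the labels. According to the submitters' processing notes and the paper's methods, polyA-selected stranded libraries were quantified with salmon (1.9.0) on Ensembl release 94 cDNA (GRCh38, hg38) and analysed with DESeq2 (1.26.0). The authors deposited 1 table of log2 values for 36859 genes, which were read as variance-stabilized normalized counts because their minimum, 11.32, is the same in each library. This transformation was inverted to obtain normalized counts, since the deposited scale compresses low genes. The plan assumed linear normalized counts, and its test was kept. How transcripts were assigned to genes is not given in the sources used here.

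Gene names and hg38 coordinates came from GENCODE 44 (33878 genes matched). Genes reaching 10 normalized counts in 2 or more libraries were tested with limma (3.58.1, R 4.3.3) on log2(normalized count + 1), with all 22 libraries in 1 fit of 11 group means, an intensity trend and Benjamini-Hochberg adjustment over 14585 genes. A gene was called when it passed 0.05 by adjusted p and 2-fold, 1 on the log2 scale, by size. On simulated data for KO1 against WT, with 14070 genes of which 194 were changed by 2 on the log2 scale, 119 (61.3%) were recovered with 8 false calls. Only these genes were changed, in KO1 alone, while 25% of tested genes were called in the real comparison. These rates therefore need not hold for it.

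The genes and lists were chosen with earlier results of these data known. The rule asked for values in every library, given here with the 8 libraries of transduced WT cells mostly as a range, for genes called in at least 1 of KO1, KO2 or TGF-β against WT, Rescue against KO and Rescue against WT eGFP, and for the most abundant gene of each role. From the wider repair list the 2 called highest and 2 called lowest per comparison were eligible for naming. Of these, 1 result is not reported here. Rescue is the mean of Rescue1 and Rescue2, and KO the mean of KO1 and KO2. The sources differ on which clone is the parent of the rescue lines. The direct contrasts of the knockouts with TGF-β were added after seeing the data. Reads per library were estimated from the step between low values, and genes with few counts are measured imprecisely.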

Additional observations from a re-analysis of the deposited data

Results flagged for a closer look

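The 2 knockout clones were compared directly, and 5 genes differed between them by limma at an adjusted p under 0.05, of which 3 by more than 2-fold. These 3 are 9.09% of the 33 genes, which is near the 6.97% of all tested genes called (4.49% lower and 2.48% higher). The share of all tested genes that passed at any fold is not given here. BLM was lower in KO1 than in KO2 by a log2 difference of -2.51 (SE 0.59, adjusted p = 0.00915), with 11.7 and 4.99 normalized counts in KO1 and 22.9 and 102 in KO2. This call was lost without KO1 replicate 2 (-1.96, adjusted p = 0.0864) or KO2 replicate 2 (-1.45, adjusted p = 0.132). BRCA2 differed by -1.91 (SE 0.60, adjusted p = 0.0429), a call lost without KO1 replicate 1 (-0.95, adjusted p = 0.297) or KO2 replicate 1 (-1.36, adjusted p = 0.269). FANCI differed by -1.0 (SE 0.28, adjusted p = 0.0251), and without KO1 replicate 2 (-0.61, adjusted p = 0.24) or KO2 replicate 2 (-0.71, adjusted p = 0.225) it was not called. RAD50 differed by -0.53 and CHEK2, in the other direction, by 0.86, both by less than 2-fold. MKI67 was also lower in KO1 than in KO2 (-2.2, SE 0.52, adjusted p = 0.0101), and 9 of 28 proliferation markers were called lower and none higher. The part of proliferation in these differences was not tested. Each clone is a single isolate, so clone and guide outcome cannot be told apart.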

How the results depend on the processing

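Counts of called genes stayed within 1.5 times the reported count with an added count of 5, without the filter, with a filter at a mean of 50 normalized counts (chosen after seeing the data), with quantile normalization and with equal totals. On the deposited log2 values, whose scale compresses low genes by construction, 0 genes were called in every comparison. With only the compared libraries in the fit, and so fewer residual degrees of freedom, 8 were called in KO1 and 5 in KO2 against WT, 0 in KO1 against KO2, with TGF-β and in KO2 rescue against KO2, 2 in WT eGFP against WT, and 5 in Rescue against WT eGFP. Leaving out 1 library gave 11 to 14 in KO1, 7 to 12 in KO2 (7 without WT replicate 2), 4 to 7 with TGF-β, 14 to 17 in Rescue against KO, 1 to 3 in Rescue against WT eGFP, in KO2 rescue against KO2 and in KO1 against KO2, and 3 to 4 in WT eGFP against WT. The change of PALB2 in KO1 turned to -0.0275 (adjusted p = 0.907) with equal totals. Against KO1 alone Rescue had 16 genes called and against KO2 alone 12. With S phase or with G2/M markers alone, 11 genes each had an r of at least 0.8. The replicate numbers did not pair the samples, since same-numbered libraries correlated at -0.082 to 0.047 over 55 pairs of groups, and with the replicate block 16 genes were called in KO1, 11 in KO2 and 2 in Rescue against WT eGFP and in KO1 against KO2.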
